A study of Homo sapiens with 12 samples.

Results

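The 30 genes described here encode enzymes of cholesterol and fatty acid synthesis and the proteins that control them. The genes were taken by name and textbook role out of the 58302 genes listed in each of 12 RNA-sequencing libraries. The choice was made with earlier results of these data known. They fall into 6 genes of the mevalonate arm, 11 genes of squalene and sterol ring synthesis, 5 genes of the sterol regulatory element-binding proteins (SREBPs), their control and sterol transfer, and 8 genes of fatty acid synthesis and desaturation. The libraries came from 2 human renal carcinoma cell lines, 769-P and ACHN, both called clear cell renal cell carcinoma cells in the labels. Each line received either siRNA against NUF2 (siNUF2) or a control siRNA (siControl) for 48 h, with 3 replicates in each of the 4 groups. NUF2 encodes a subunit of the NDC80 kinetochore complex. The siNUF2 reagent was a mixture of siRNAs against the same mRNA, so loss of NUF2 and any other effect of these siRNAs cannot be told apart. The lines were grown in different media, RPMI-1640 for 769-P and Eagle's MEM for ACHN, so line and medium cannot be told apart either. Nothing in the labels says that replicates came from separate cultures, and p-values then measure only the spread between these libraries, which may be technical.

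Cholesterol is built from acetyl-CoA through mevalonate, farnesyl diphosphate and squalene, after which the sterol ring is closed, demethylated and reduced. When sterol in the endoplasmic reticulum is low, SCAP escorts the SREBPs to the Golgi, where proteases release the part that enters the nucleus and switches on sterol and fatty acid genes. When sterol is high, INSIG proteins hold SCAP and the SREBPs back. Clear cell renal carcinoma is known for cells that store cholesterol esters and triglycerides in lipid droplets.

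The deposited values are FPKM, fragments scaled to exon length and library size, which allow levels to be compared between genes. Whole reads could be recovered from the FPKM of 99.2% of the genes above 0, and the recovered totals ran from 29091190 to 38653593 reads per library. The lowest counts of the 30 genes in any library were 106 reads for TM7SF2 and 213 reads for FADS2, and those of the other members began at 300 reads. NUF2 was 19.4, 17.8 and 17.8 FPKM in the siControl libraries of 769-P and 4.17, 3.86 and 3.01 FPKM in the siNUF2 libraries, and the corresponding values in ACHN were 11.6, 15.0 and 14.8 FPKM against 2.16, 5.14 and 4.25 FPKM. The targeted mRNA was thus lower in every siNUF2 library, by 2.29 ± 0.129 in 769-P and 1.88 ± 0.319 in ACHN on the log2(FPKM + 0.1) scale (difference ± SE, n = 3 against 3). The adjusted p of limma was 0.00141 in 769-P and 0.228 in ACHN, and 0.0127 in ACHN with the replicate number as a block. The renal markers PAX8, PAX2, KRT8, KRT18 and VIM were expressed in both lines, whereas CDH6 was 2.35 to 8.19 FPKM in 769-P and at most 0.00472 FPKM in ACHN. All 6 immune and endothelial markers stayed at or below 0.0953 FPKM.

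Reads of some members can be shared with other genes. FADS2, the lowest of the 30 genes in 769-P, overlaps exons of FADS1 over 490 bases and of the abundant FEN1 over 49 bases. SREBF1 overlaps RAI1 over 556 bases, MVK overlaps MMAB over 306 bases, and FDPS overlaps RUSC1-AS1 over 693 bases and has 8 pseudogene copies. Whether reads were counted by strand is not given in the sources used here, so the values of these genes carry that uncertainty.

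Under siControl the 2 lines differed in genes of both sterol and fatty acid synthesis. In 769-P, EBP was 4.80-fold, IDI1 4.35-fold and SQLE 3.69-fold higher than in ACHN, whereas FADS2 was 2.97-fold lower. Of the 30 genes, 15 were higher and 4 lower in 769-P at an adjusted p under 0.05 (limma on log2(FPKM + 0.1), Benjamini-Hochberg over all 15382 genes tested). The lines differed widely in all genes: 61.4% of those tested passed, 31.4% higher and 30% lower in 769-P. The 19 of 30 members that passed (63.3%) were thus close to the background in number, while 15 of 30 members were higher in 769-P. The median difference of the members was 0.54 on the log2 scale, beside 0.02 over all genes. The libraries of the lines did not overlap in 18 of 30 members (60.0%), beside 68.3% of all genes, so a lack of overlap was common here.

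In the mevalonate arm, 4 of 6 genes were higher in 769-P and none was lower. IDI1, which isomerises isopentenyl diphosphate, was 19.0, 27.0 and 32.9 FPKM in 769-P against 6.34, 4.77 and 6.76 FPKM in ACHN (log2 difference 2.12 ± 0.227 SE, adjusted p = 0.000269). HMGCS1, which makes HMG-CoA at the head of the arm, was 17.7, 27.5 and 30.8 FPKM against 10.4, 5.83 and 8.23 FPKM (1.64 ± 0.274, adjusted p = 0.00198). For both genes the lowest 769-P library lay above the highest ACHN library. The mevalonate kinase MVK (0.77 ± 0.212) and the decarboxylase MVD (0.64 ± 0.193) were higher by less. The kinase PMVK and farnesyl diphosphate synthase FDPS did not pass, and their libraries overlapped between the lines.

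In squalene and sterol ring synthesis, 7 of 11 genes were higher and 2 lower in 769-P. EBP, the sterol isomerase, showed the tightest separation, with 33.9, 34.4 and 33.8 FPKM in 769-P against 6.49, 8.21 and 6.70 FPKM in ACHN (2.26 ± 0.111, adjusted p = 1.1e-05). SQLE, the squalene epoxidase and a rate-limiting step, was 33.0, 37.1 and 43.6 FPKM against 11.7, 9.17 and 10.1 FPKM (1.88 ± 0.141, adjusted p = 5.9e-05). The lowest SQLE value in 769-P was well above the highest in ACHN. MSMO1 and NSDHL act in turn in removing methyl groups from the ring. MSMO1 was 39.6, 48.2 and 72.9 FPKM against 20.1, 13.0 and 19.5 FPKM (1.60 ± 0.263), and NSDHL was 20.3, 21.5 and 22.8 FPKM against 8.49, 7.08 and 6.39 FPKM (1.57 ± 0.127). Neither gene overlapped between the lines. DHCR7, the reductase of the last step to cholesterol, was 28.0, 39.5 and 40.1 FPKM against 24.9, 15.6 and 13.1 FPKM (1.06 ± 0.260, adjusted p = 0.0111). Squalene synthase FDFT1 was 26.4, 32.2 and 38.9 FPKM against 18, 16 and 17.7 FPKM (0.91 ± 0.149). HSD17B7, which follows NSDHL in the demethylation, was higher by 0.73 ± 0.229. The sterol reductase TM7SF2 ran the other way, at 1.71, 2.35 and 2.13 FPKM in 769-P against 3.95, 5.21 and 2.94 FPKM in ACHN (-0.89 ± 0.231, adjusted p = 0.0135), and the desaturase SC5D was lower by less (-0.56 ± 0.197).

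Of the SREBP genes, SREBF2 was higher in 769-P and SREBF1 did not pass. SREBF1 was 27.1, 43.2 and 33.4 FPKM in 769-P and 40.9, 32.1 and 28.4 FPKM in ACHN, a log2 difference of 0.04 with a 95% interval from -0.44 to 0.52. SREBF2 was 39.6, 53.1 and 51.9 FPKM against 40.1, 33.5 and 32.1 FPKM (0.46 ± 0.147, adjusted p = 0.0305), and its lowest 769-P library lay just under the highest of ACHN. INSIG1 was 20.3, 48.2 and 53.7 FPKM against 47.6, 10.8 and 29.6 FPKM, so broadly spread in either line that its difference of 0.61 had a 95% interval from -0.81 to 2.03. SCAP was lower in 769-P (-0.43 ± 0.152, adjusted p = 0.0434), and the sterol carrier STARD4 did not pass.

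Among the fatty acid genes, 3 of 8 were higher and 1 lower in 769-P. SCD, which makes monounsaturated from saturated fatty acids, was 102, 246 and 262 FPKM in 769-P against 79.4, 80.3 and 48.0 FPKM in ACHN (1.49 ± 0.393, adjusted p = 0.0146). FASN, the fatty acid synthase, was 77.6, 90.6 and 76.8 FPKM against 53.0, 50.3 and 28.1 FPKM (0.97 ± 0.244, adjusted p = 0.0124). ELOVL6, which lengthens the palmitate that FASN makes, was 5.56, 7.34 and 9.12 FPKM against 2.46, 2.69 and 1.92 FPKM (1.60 ± 0.214, adjusted p = 0.00075). All 3 genes were higher in every 769-P library than in any ACHN library. FADS2, the desaturase at the start of polyunsaturated fatty acid synthesis, was 0.656, 0.987 and 0.868 FPKM against 2.04, 3.22 and 2.93 FPKM (-1.57 ± 0.228, adjusted p = 0.00106), again without overlap. The genes that supply acetyl-CoA and malonyl-CoA, ACLY, ACSS2 and ACACA, did not pass, nor did FADS1. ACLY had the highest mean FPKM of the 30 genes in each line, at 226 ± 10.3 FPKM in 769-P and 203 ± 54.6 FPKM in ACHN (mean ± SD, n = 3), although SCD was above it in siControl replicates 2 and 3 of 769-P.

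**Figure D1:**
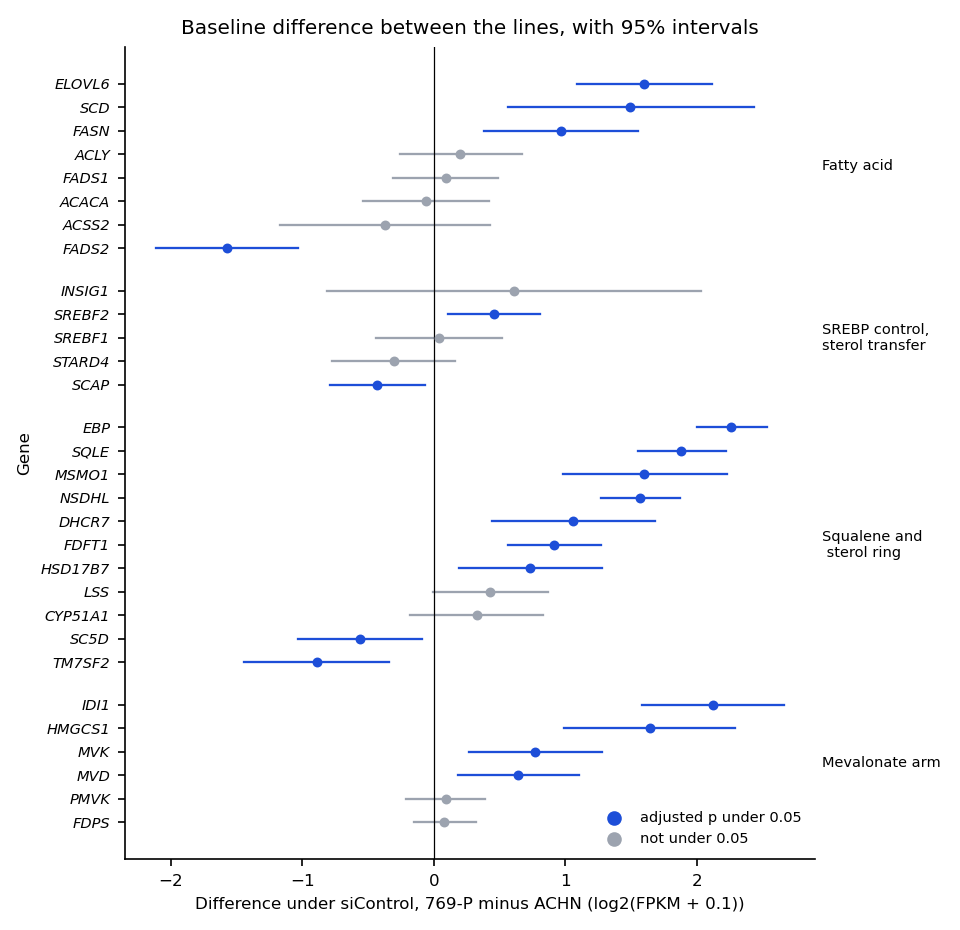
Difference in log2(FPKM + 0.1) between the siControl libraries of 769-P and ACHN (x axis, 769-P minus ACHN) for the 30 genes (y axis), grouped by role and ordered by size, with 95% intervals. Blue points passed an adjusted p of 0.05: 15 lie above 0 and 4 below, from EBP at 2.26 to FADS2 at -1.57, while SREBF1 sits at 0.04.

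Of the 11 members that did not pass between the lines, differences ran from -0.37 to 0.61, and only INSIG1 lay beyond a member that passed. Without siControl replicate 1, 2 or 3 of 769-P, 17, 13 and 14 members were called, and without siControl replicate 1, 2 or 3 of ACHN, 17, 16 and 13. MVK, MVD, HSD17B7, SC5D, SREBF2 and SCAP lost the call in 2 or more of these fits with the direction kept, MVD at 0.50 to 0.69 and SREBF2 at 0.39 to 0.42 in the fits where they lost it. SCD lost it narrowly without siControl replicate 3 of ACHN (adjusted p = 0.0502 by the same test). The other 12 calls stood in all 6 fits.

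**Figure D2:**
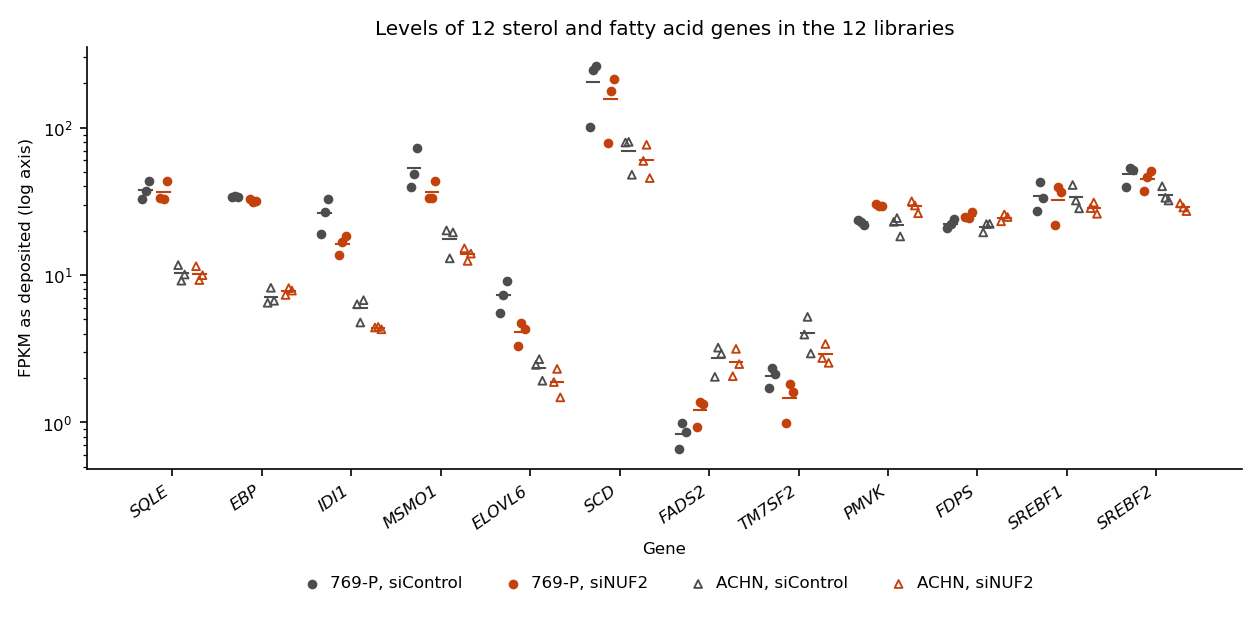
FPKM as deposited (y axis, log scale) of 12 of the genes in each of the 12 libraries, with a point per library and a bar at the mean of 3 (filled circles 769-P, open triangles ACHN, grey siControl, orange siNUF2). SQLE, EBP, IDI1 and MSMO1 were higher in every 769-P library than in any ACHN library of the same siRNA, FADS2 was lower, and SREBF1 overlapped. PMVK and FDPS were higher with siNUF2 than with siControl in both lines without overlap. Of all genes, 33.3% in 769-P and 14.3% in ACHN did not overlap between siRNAs, in either direction.

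In 769-P cells, 13 of the 30 members were lower and 3 higher with siNUF2 when the replicate number was a block, and 1 was lower and 1 higher without it. With the block, ELOVL6 was 1.73-fold, IDI1 1.58-fold and STARD4 1.48-fold lower, while PMVK, FDPS and FADS2 were higher. The 2 members that passed in the test without replicate numbers were ACLY, lower, and PMVK, higher, beside 9.90% of the 14157 genes tested (4.58% lower and 5.32% higher). Over the genes tested, deviations from the group mean in same-numbered libraries of 769-P correlated at 0.19 to 0.36. With the replicate number as a block 16 members passed, 13 lower and 3 higher, beside 27.6% of all genes (13.7% lower and 13.9% higher). In limma-voom on the recovered reads with the block, added after the values were seen, 20 members passed, beside 33.6% of genes. In limma with the block 43.3% of the members were called lower, against 13.7% of genes, and without the block 3.33% against 4.58%. Of the 30 differences 26 were below 0 (50.9% of all genes). The siNUF2 and siControl libraries did not overlap in 9 of 30 members, beside 33.3% of all genes. A lack of overlap was thus common in 769-P and does not set a member apart. The members were chosen with earlier results known and vary together between replicates, so these shares are a description and not a test. The median difference of the members was -0.20 on the log2 scale, beside -0.01 for all genes. These differences are given below with the adjusted p of limma (Benjamini-Hochberg over all genes) from the fit with the block.

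Members of the mevalonate arm differed in direction. IDI1 was 13.6, 16.7 and 18.4 FPKM with siNUF2 against 19.0, 27.0 and 32.9 FPKM with siControl, lower in each same-numbered pair and without overlap (-0.66, SE 0.075, adjusted p = 0.008 with the block and 0.0851 without). MVK was 3.01, 4.01 and 4.62 FPKM against 3.63, 5.82 and 5.90 FPKM (-0.36, SE 0.072, adjusted p = 0.0231 with the block and 0.338 without). PMVK, the next kinase after MVK, was 30.4, 29.5 and 29.5 FPKM against 23.8, 23.0 and 21.9 FPKM (0.39, SE 0.043, adjusted p = 0.00753 with the block and 0.0178 without). Every PMVK value with siNUF2 was above every siControl value, whereas the MVK groups overlapped. The estimates of these adjacent steps thus had opposite signs, but that of MVK passed only with the block. MVK also lost its call without pair 2 or without pair 3, and PMVK without pair 2. FDPS, which makes farnesyl diphosphate, was 24.5 to 26.9 FPKM against 21.0 to 24.0 FPKM (0.19, SE 0.042, adjusted p = 0.0294). HMGCS1 was 17.7, 21.7 and 24.4 FPKM against 17.7, 27.5 and 30.8 FPKM and did not pass (-0.21, adjusted p = 0.108): it was equal in pair 1 and lower in the others.

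All 11 genes of squalene and sterol ring synthesis lay below 0 in 769-P, and 6 passed with the block. MSMO1 was 33.3, 33.3 and 43.5 FPKM with siNUF2 against 39.6, 48.2 and 72.9 FPKM with siControl (-0.50, SE 0.094, adjusted p = 0.0212). TM7SF2 was 0.991, 1.83 and 1.60 FPKM against 1.71, 2.35 and 2.13 FPKM (-0.48, SE 0.115, adjusted p = 0.0377). HSD17B7 was 3.89, 3.62 and 4.45 FPKM against 4.49, 5.24 and 6.92 FPKM (-0.44, SE 0.094, adjusted p = 0.0287). The groups overlapped for MSMO1 and TM7SF2 but not for HSD17B7, and each was lower in all 3 pairs. DHCR7 was 20, 28.7 and 34.7 FPKM against 28.0, 39.5 and 40.1 FPKM (-0.37, SE 0.070, adjusted p = 0.0204). FDFT1 (-0.28, SE 0.060) and NSDHL (-0.19, SE 0.042) passed with smaller differences. Without the block none of these 6 genes passed, with an adjusted p from 0.127 (NSDHL) to 0.319 (DHCR7). SQLE, in contrast, was 33.3, 33.1 and 43.7 FPKM against 33.0, 37.1 and 43.6 FPKM, a difference of -0.04 with a 95% interval from -0.36 to 0.29 in the fit without the block. CYP51A1, which demethylates lanosterol, and SC5D did not pass at -0.25 and -0.21. The mean log2(FPKM + 0.1) over the 11 genes was 3.52, 3.80 and 4.0 in siControl replicates 1, 2 and 3 and 3.31, 3.46 and 3.70 in the siNUF2 replicates of the same number.

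Neither SREBP gene passed in 769-P. SREBF1 was 21.8, 39.6 and 36.4 FPKM with siNUF2 against 27.1, 43.2 and 33.4 FPKM with siControl (-0.09, adjusted p = 0.494), and SREBF2 was 37.2, 46.1 and 51.1 FPKM against 39.6, 53.1 and 51.9 FPKM (-0.09, adjusted p = 0.222). INSIG1, itself an SREBP target, was 23.2, 38.6 and 51.3 FPKM against 20.3, 48.2 and 53.7 FPKM (-0.05, adjusted p = 0.722), higher in pair 1 and lower in the others. STARD4, which carries sterol between membranes, was the member of this group that fell, from 4.47, 6.14 and 7.65 FPKM to 3.40, 3.92 and 4.61 FPKM (-0.57, SE 0.080, adjusted p = 0.011). Its highest siNUF2 library lay just above its lowest siControl library.

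Among the fatty acid genes, 4 of 8 were lower and 1 was higher with the block. ELOVL6 was 3.32, 4.75 and 4.31 FPKM with siNUF2 against 5.56, 7.34 and 9.12 FPKM with siControl, the largest difference of the 30 genes (-0.79, SE 0.098, adjusted p = 0.00871 with the block and 0.0503 without). The groups of ELOVL6 did not overlap. SCD was 79.0, 179 and 215 FPKM against 102, 246 and 262 FPKM (-0.36, SE 0.045, adjusted p = 0.00876 with the block and 0.668 without). Here replicate 1 was far below the others with either siRNA, while the difference within a pair was -0.37, -0.46 and -0.29. ACSS2, which makes acetyl-CoA from acetate, was 2.38, 3.23 and 3.23 FPKM against 2.81, 4.35 and 4.60 FPKM (-0.37, SE 0.075, adjusted p = 0.0248). ACLY, which makes it from citrate, was 185 to 190 FPKM against 214 to 234 FPKM (-0.25, SE 0.040, adjusted p = 0.0141 with the block and 0.0359 without). FASN was 66.7, 73.3 and 73.8 FPKM against 77.6, 90.6 and 76.8 FPKM and did not pass (-0.18, adjusted p = 0.0774), although its groups did not overlap. FADS2 was 0.934, 1.37 and 1.33 FPKM against 0.656, 0.987 and 0.868 FPKM (0.50, SE 0.124, adjusted p = 0.0421), higher in each pair with 1 siNUF2 library inside the siControl range.

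The 14 members that did not pass in 769-P had differences from -0.25 to 0.11, and HMGCS1, CYP51A1 and SC5D lay beyond the smallest that passed. In the fit without the block, leaving out siNUF2 replicate 1, 2 or 3 or siControl replicate 2 or 3 gave 0 calls in each case, and leaving out siControl replicate 1 gave 5. With the block, 13 members were called without pair 1, 2 without pair 2 (IDI1 and ELOVL6) and 11 without pair 3. IDI1 and ELOVL6 were called lower in all 3 of these fits, and no other member was called without pair 2. TM7SF2, NSDHL and FADS2 passed with all pairs but in none of these fits. HMGCS1 and CYP51A1, without pair 1, and LSS and FASN, without pair 3, were called there though they did not pass with all pairs.

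**Figure D3:**
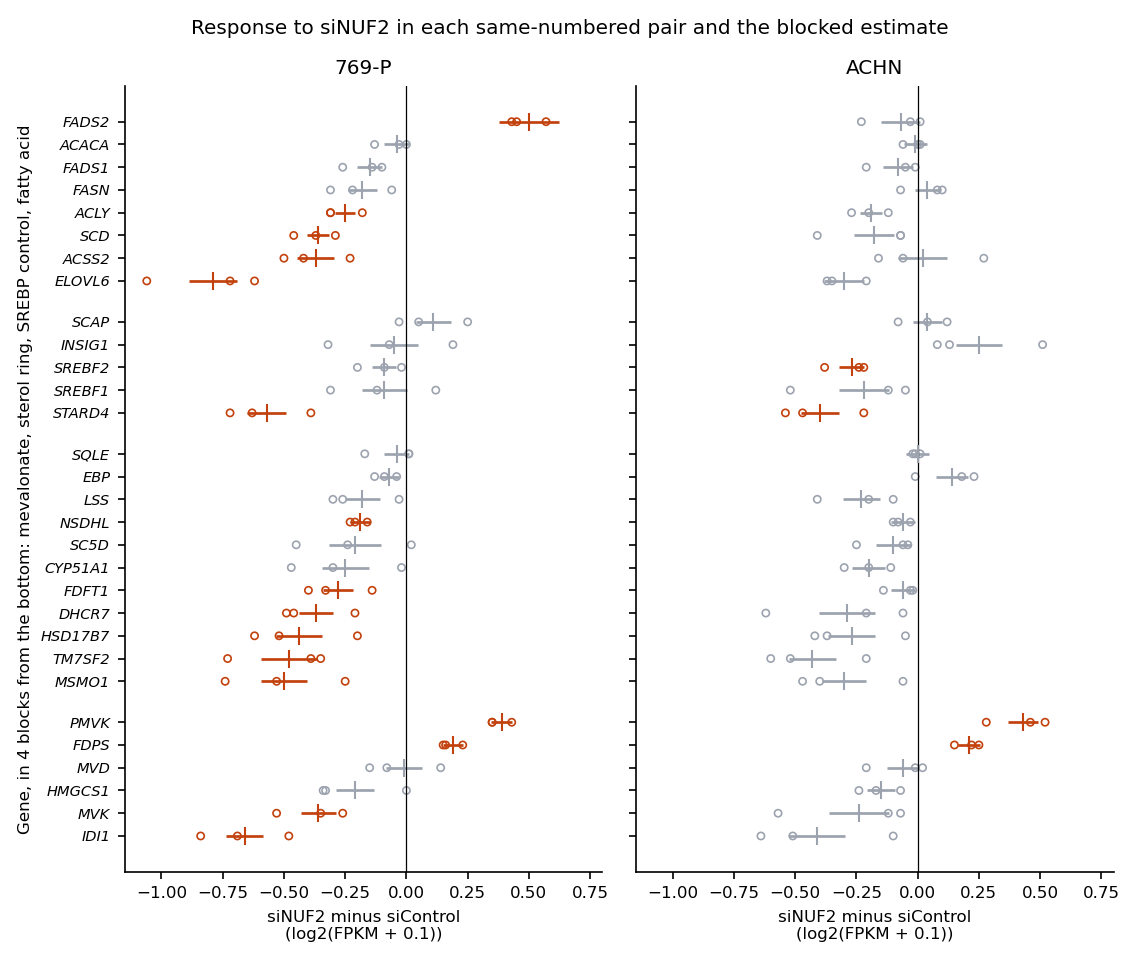
Difference of siNUF2 minus siControl in log2(FPKM + 0.1) (x axis) for the 30 genes (y axis) in 769-P (left) and ACHN (right). Open circles are the 3 same-numbered pairs, the vertical tick is the estimate with the replicate number as a block and the horizontal bar its SE, and orange marks an adjusted p under 0.05 in that fit: 16 genes in 769-P and 4 in ACHN.

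The promoters of the members were read for known motifs, whether or not a member passed. RefSeq promoter windows on GRCh38.p14, from 250 bases before to 50 bases after a gene's start, were held for 27 of the 30 genes, all but FDFT1, SQLE and FASN. SREBPs bind sterol regulatory elements together with the factors NF-Y, which binds CCAAT, and Sp1, which binds GC boxes. CCAAT was found on either strand in 21 of 27 members (77.8%), against 39.7% of the 27305 genes with a window, and the GC box GGGCGG in 26 (96.3%) against 48.3%. The element TCACNCCAC was found in SREBF2 alone (3.7% against 1.39% of genes), and its core TCACNCCA also in MVK and MSMO1 (11.1% against 4.80%). A gene with several starts counted if any of its windows held the letters, and members had 1.37 windows on average against 1.29 for all genes. The genes with a window were not limited to expressed or protein-coding genes, which the members all are, so these shares do not compare like with like. Each such match describes the letters and not a bound site. The E-box CACGTG was in 4 members (14.8% against 8.77%). The stretches below show how these letters lie in SREBF2 and MSMO1, which hold the core, in STARD4 and IDI1, which were among the largest differences, and in SCD, one of the most abundant mRNAs. Capitals mark TCACNCCAC or its core and CCAAT, which reads ATTGG on the other strand, and each is written 5′ to 3′ on the strand of its gene, upstream of the start.
SREBF2, chr22:41832945-41833078, plus strand: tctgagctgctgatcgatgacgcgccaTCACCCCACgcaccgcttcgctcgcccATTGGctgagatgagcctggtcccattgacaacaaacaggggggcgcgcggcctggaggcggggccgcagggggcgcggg
MSMO1, chr4:165327469-165327622, plus strand: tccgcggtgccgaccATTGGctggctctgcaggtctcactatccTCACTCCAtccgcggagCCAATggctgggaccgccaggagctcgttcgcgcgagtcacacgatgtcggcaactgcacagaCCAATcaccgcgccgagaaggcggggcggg
STARD4, chr5:111512591-111512735, minus strand: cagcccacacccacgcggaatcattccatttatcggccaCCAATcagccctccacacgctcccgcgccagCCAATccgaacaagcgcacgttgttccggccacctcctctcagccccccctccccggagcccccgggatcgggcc
IDI1, chr10:1049171-1049339, minus strand: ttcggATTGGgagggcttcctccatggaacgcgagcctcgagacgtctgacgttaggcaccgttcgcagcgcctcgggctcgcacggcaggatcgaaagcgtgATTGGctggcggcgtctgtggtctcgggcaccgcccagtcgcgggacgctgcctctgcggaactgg
SCD, chr10:100346983-100347123, plus strand: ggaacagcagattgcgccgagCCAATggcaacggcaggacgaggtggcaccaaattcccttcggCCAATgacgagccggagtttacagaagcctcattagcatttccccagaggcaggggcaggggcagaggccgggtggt
In these stretches SREBF2 and MSMO1 hold CCAAT within a short distance of TCACNCCAC or its core. STARD4, IDI1 and SCD each hold a pair of CCAAT boxes and neither of these exact strings. Sterol elements with other letters were not searched for, so a member without a match may still hold one.

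In ACHN cells most members were also below 0 with siNUF2, and those that passed did so with the replicate number as a block. No member and no other gene passed in the test without replicate numbers (0 of 30 members and 0 of 15114 genes by limma). At an unadjusted p under 0.05, 3 members were found, beside 8.14% of all genes, and limma-voom on the recovered reads without the block also called 0 members. With the replicate number as a block, 4 members passed, SREBF2 and STARD4 lower and PMVK and FDPS higher, beside 11.7% of all genes (5.09% lower and 6.65% higher). In limma-voom with the block 11 members passed, beside 20.2% of genes. The 30 differences had a median of -0.13, and 22 were below 0, beside 50.3% of all genes.

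PMVK was again higher, at 31.7, 29.7 and 26.3 FPKM with siNUF2 against 23.0, 24.4 and 18.3 FPKM with siControl (0.43, SE 0.062, adjusted p = 0.0231). FDPS was 23.2, 25.8 and 24.8 FPKM against 19.5, 22.2 and 22.3 FPKM (0.21, SE 0.044, adjusted p = 0.0446). STARD4 was 5.58, 6.05 and 5.13 FPKM against 7.75, 7.08 and 7.52 FPKM (-0.40, SE 0.077, adjusted p = 0.0387). In all 3 genes no siNUF2 library overlapped a siControl library. In ACHN this was so for 5 of 30 members (16.7%), near the 14.3% of all genes. SREBF2 was 30.7, 28.8 and 27.2 FPKM against 40.1, 33.5 and 32.1 FPKM (-0.27, SE 0.052, adjusted p = 0.0388), also without overlap, and it was the SREBP gene that passed in ACHN. SREBF1 was 28.5, 31.1 and 26.1 FPKM against 40.9, 32.1 and 28.4 FPKM and did not pass (-0.22, adjusted p = 0.206). INSIG1 was 50.3, 15.4 and 32.3 FPKM against 47.6, 10.8 and 29.6 FPKM (0.25, adjusted p = 0.148), higher in each pair although its replicates were far apart.

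Of the synthesis enzymes in ACHN, SQLE was 11.5, 9.26 and 9.99 FPKM with siNUF2 against 11.7, 9.17 and 10.1 FPKM with siControl, a difference of 0.00 with a 95% interval from -0.33 to 0.34 in the fit without the block. HMGCS1 was 8.79, 5.55 and 7.31 FPKM against 10.4, 5.83 and 8.23 FPKM (-0.15, adjusted p = 0.152). FASN was 50.3, 53.2 and 30 FPKM against 53.0, 50.3 and 28.1 FPKM (0.04, adjusted p = 0.614), and SCD was 59.6, 76.7 and 45.6 FPKM against 79.4, 80.3 and 48.0 FPKM (-0.18, adjusted p = 0.214). For each of these genes the siNUF2 and siControl values overlapped. The 26 members that did not pass ran from -0.43 (TM7SF2) to 0.25 (INSIG1). Those beyond the smallest that passed were TM7SF2, IDI1 (-0.41), MSMO1 (-0.30), ELOVL6 (-0.30), DHCR7 (-0.29), HSD17B7 (-0.27), INSIG1, MVK (-0.24), LSS (-0.23), the cyclase that makes lanosterol, and SREBF1. With the block, 0 members were called without pair 1 or without pair 3 and 4 without pair 2. Those 4 were IDI1, MSMO1 and STARD4, lower, and PMVK, higher. SREBF2 and FDPS, which passed with all pairs, were called in none of these fits.

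The lines share no libraries, so their directions can be set side by side. In 16 of 30 members siNUF2 was lower than siControl in all 6 same-numbered pairs, beside 17.9% of the 12931 genes tested in both lines. They were MVK and IDI1 of the mevalonate arm, 8 genes of squalene and sterol ring synthesis (FDFT1, LSS, CYP51A1, TM7SF2, MSMO1, NSDHL, HSD17B7 and DHCR7), SREBF2 and STARD4, and the fatty acid genes ACLY, ELOVL6, SCD and FADS1. PMVK and FDPS were higher in all 6, beside 17.0% of genes. The members were chosen with earlier results known and vary together between replicates, so these shares too are a description and not a test. With the block, 3 members were called in the same direction in both lines, STARD4 lower (3.29% of genes were called lower in both) and PMVK and FDPS higher (5.03%), which is 18.8% of the members called in 769-P and 75.0% of those called in ACHN. Over all genes tested in both lines these shares were 29.2% and 65.2%, so the members called in both lines were near the background in number.

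Whether the lines responded differently was tested by the interaction of siRNA and line over all 12 libraries. No member and none of 16575 genes passed in limma without the block, and at an unadjusted p under 0.05 there were 0 members and 4.72% of genes. With the block the members called were again 0, beside 1.41% of genes. The largest differences of response, 769-P minus ACHN, were 0.56 for FADS2 (SE 0.116, adjusted p = 0.0741 with the block) and -0.49 for ELOVL6 (SE 0.133, adjusted p = 0.117 with the block). In limma-voom with the block, added after the values were seen, these 2 genes passed, beside 5.49% of genes. FADS2 in ACHN was 2.06, 3.16 and 2.49 FPKM with siNUF2 against 2.04, 3.22 and 2.93 FPKM with siControl, where it overlapped fully, and ELOVL6 was 1.88, 2.31 and 1.48 FPKM against 2.46, 2.69 and 1.92 FPKM, lower in each pair.

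For most of these genes, as for most genes tested, the replicate-number means of a line ranged wider than the response to siNUF2. The range of the 3 replicate-number means had a median of 0.52 on the log2 scale over the members in 769-P, beside 0.23 over all genes, and of 0.43 beside 0.39 in ACHN. This range exceeded the size of the response in 21 of 30 members in 769-P (60.1% of all genes) and 25 of 30 in ACHN (82.0%). A range over 3 means and a single difference are unlike measures, so these counts do not weigh replicate against siRNA. INSIG1 had ranges of 1.27 in 769-P and 1.92 in ACHN, and SCD one of 1.40 in 769-P. In 769-P replicate 1 was the lowest for both genes with either siRNA, while in ACHN INSIG1 was lowest in replicate 2. An F test of the replicate number, added after the values were seen, called LSS, DHCR7, INSIG1, SCD and FADS1 in 769-P, beside 3.39% of all genes, and 18 members in ACHN, beside 42.2%. What the replicate number stands for is not given in the sources used here, and its part in the results was not tested further than by the block.

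**Figure D4:**
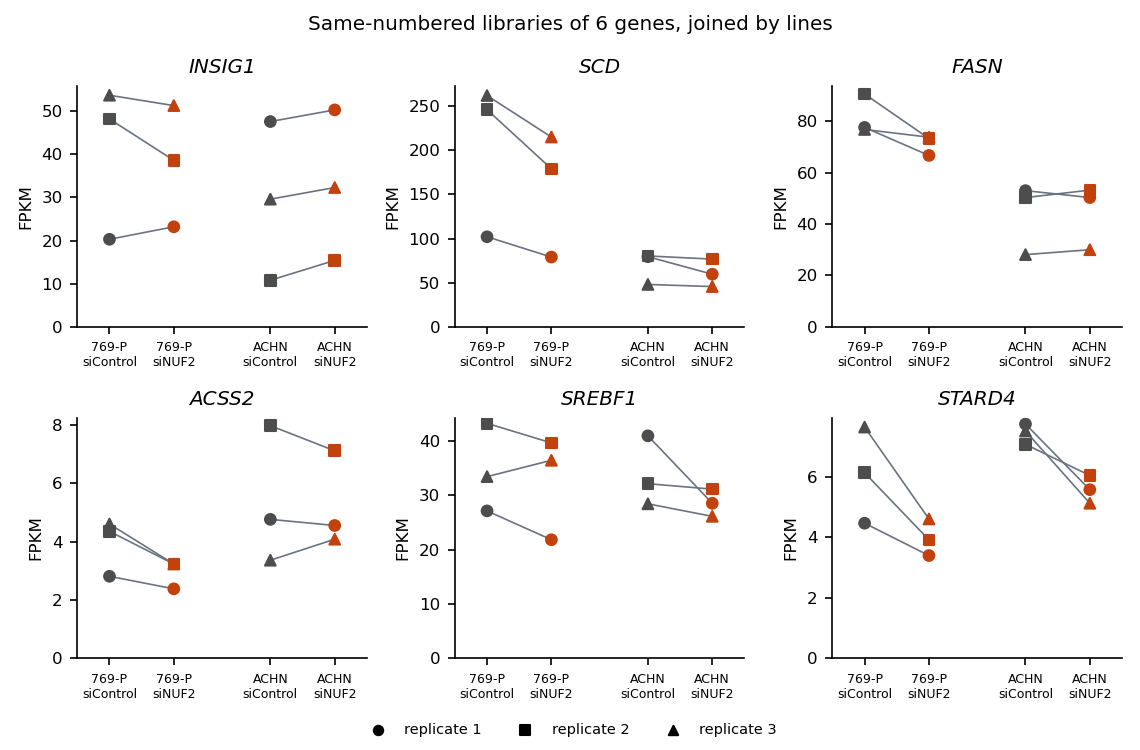
FPKM (y axis, from 0) of 6 genes under siControl and siNUF2 (x axis) in each line, with lines joining same-numbered libraries and symbols giving the replicate number. INSIG1 in both lines and SCD in 769-P show replicates far apart, STARD4 falls in all 6 pairs, and FASN and ACSS2 in ACHN show no common direction.

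The surrounding pathway was read from 4 further lists of 59 genes that are not members. Their counts with the block stand beside 13.7% lower and 13.9% higher of all genes in 769-P, and 5.09% and 6.65% in ACHN. For SREBP processing, sterol sensing, uptake, efflux and esterification, 15 of 16 genes were tested, and with the block 4 were lower and 4 higher in 769-P and 3 lower and 0 higher in ACHN (53.3% and 20.0% called in either direction, beside 27.6% and 11.7% of all genes). The SREBP proteases moved apart in 769-P. MBTPS2 was 3.60, 3.45 and 2.88 FPKM with siNUF2 against 4.59, 4.93 and 5.77 FPKM (-0.60 ± 0.123, adjusted p = 0.0305 without the block), and MBTPS1 was 12.7, 12.5 and 14.5 FPKM against 9.83, 9.54 and 10.7 FPKM (0.41 ± 0.085, adjusted p = 0.0307). SOAT1, which esterifies cholesterol for storage, was 17.4, 15.7 and 16.1 FPKM against 23.3, 22.2 and 26.8 FPKM (-0.54 ± 0.090, adjusted p = 0.0172). None of these 3 genes overlapped between siRNAs in 769-P, which was also so for 33.3% of all genes. In ACHN the 3 genes called lower with the block were ABCA1, the cholesterol exporter (-0.67, SE 0.080, adjusted p = 0.018), INSIG2 (-0.40, SE 0.068) and MBTPS2 (-0.34, SE 0.068).

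In the list of fatty acid elongation, desaturation and activation, 2 genes were lower and 4 higher of 17 tested in 769-P with the block, and 1 was lower and 1 higher of 19 in ACHN. These were 35.3% and 10.5% of the list, near the 27.6% and 11.7% of all genes. ME1, the malic enzyme that supplies NADPH for fatty acid synthesis, was 8.61, 7.38 and 9.81 FPKM with siNUF2 against 3.62, 3.51 and 3.98 FPKM in 769-P (1.20 ± 0.117, adjusted p = 0.00476 without the block). In ACHN it was 14.2, 14.7 and 16.5 FPKM against 10.2, 9.23 and 11.5 FPKM (0.56, SE 0.058, adjusted p = 0.0148 with the block and 0.28 without). ME1 was thus higher in all 6 pairs. For the isoprenoid branches, 2 of 10 genes tested were lower and 2 higher in 769-P and none was called in ACHN with the block (40.0% called in 769-P), PDSS2 of coenzyme Q synthesis being the largest (0.40 ± 0.088). For glycerolipid assembly and lipid droplets, 2 of 11 were lower and 2 higher in 769-P and 1 lower and 1 higher in ACHN (36.4% and 18.2%). Each of these shares rests on a few genes and is no result about its list. The triglyceride lipase PNPLA2 was among the lower genes in both lines, at -0.30 in 769-P (adjusted p = 0.0114) and -0.47 in ACHN (adjusted p = 0.02), both from limma with the block.

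Between the lines under siControl, the same lists held differences as large as those of the members. PDSS1, the partner of PDSS2, was 6.50-fold and SCARB1, the HDL receptor, 4.77-fold higher in 769-P. ACSL1, which activates long-chain fatty acids, was at -2.81 ± 0.319 SE on the log2 scale, and ACACB, the mitochondrial acetyl-CoA carboxylase, was at -2.07. ACAT2, which supplies acetoacetyl-CoA to HMGCS1, was 2.40-fold and the citrate carrier SLC25A1 2.97-fold higher. Counts at an adjusted p under 0.05 by limma were 5 higher and 4 lower of 15 for sterol sensing and transport, 6 and 1 of 10 for the isoprenoid branches, 9 and 5 of 18 for elongation and activation, and 5 and 2 of 11 for glycerolipids, beside the 31.4% and 30% of all genes given above.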

How the data were processed

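Total RNA of 12 libraries was sequenced on an Illumina platform. Per the labels and the submitters' processing notes, the tools named were HISAT2 2.0.5 and featureCounts 1.5.0-p3 with the build hg38, and the authors filtered reads with fastp. The annotation release and strand setting are not given in the sources used here. The authors deposited FPKM, 1 value per gene and library. The members and the further lists were chosen with earlier results of these data known.

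FPKM were scaled by a trimmed mean of log ratios (30% of ratios and 5% of levels trimmed), which gave factors from 0.9916 to 1.011. Genes with at least 0.5 FPKM in at least 3 libraries were fitted as log2(FPKM + 0.1) in limma 3.58.1 (R 4.3.3) with a trend, and p-values were adjusted by Benjamini-Hochberg over all genes tested. Fold changes are on that scale and understate those of low genes. Each line was fitted alone, the baseline on the 6 siControl libraries, and the interaction on all 12. All 30 members passed the filter in each comparison.

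After the group mean was taken out, siNUF2 and siControl libraries with the same number correlated (769-P 0.19 to 0.36, ACHN 0.461 to 0.735), so the numbers of the labels pair the libraries within a line, and values with this number as a block stand beside the main test. Within groups no library was a copy of another (chi-square per gene of at least 14.23).

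Reads were recovered from the FPKM with GENCODE 29 exon lengths. Of 36305 genes above 0, 34585 gave whole multiples at the annotated length and 1422 at another length, within 0.02 of a read. These reads served for depth and for limma-voom, and 16319 genes entered that fit in 769-P, where it called 3 members without the block.

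Named were the members that passed in either fit, up to 12 a comparison with a value for every library, then SREBF1, SREBF2, INSIG1, SQLE, HMGCS1, FASN and SCD in any case, members beyond one that passed, and at most 4 genes of each further list. The fits were tested on simulated data. Python 3.11.15, NumPy 2.4.6, pandas 2.3.3 and matplotlib 3.10.9 made tables and figures. Alternatives were pseudocounts of 1 and 0.01, no further scaling, median-ratio scaling, no filter, all 12 libraries in a single fit, an adjusted p under 0.01, the block and each replicate left out. The choice of limma-voom and of the block without a pair came after the values were seen.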

Additional observations from a re-analysis of the deposited data

Results flagged for a closer look

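Of the further lists, 15, 10, 19 and 11 genes were tested for the interaction of siRNA and line. In 3 of these genes the response to siNUF2 differed between the lines with the replicate block, beside 1.41% of all genes (234 of 16575). None did so without the block (limma, Benjamini-Hochberg). For ME1 the response in 769-P exceeded that in ACHN by 0.63 on the log2 scale (adjusted p = 0.0381 with the block and 0.894 without). For ABCA1 the difference of responses was 0.79 (adjusted p = 0.0484 with the block and 1 without), with ABCA1 lower by siNUF2 in all 3 ACHN pairs. For TMEM97, a sterol-binding protein of the endoplasmic reticulum, the difference was -0.40 (adjusted p = 0.0483 with the block and 1 without), with lower values in 769-P and higher values in ACHN in each pair.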

How the results depend on the processing

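The number of members called moved with the fit. In 769-P it was 2 in the main fit, 16 with the replicate block, 20 in limma-voom with the block, 1 without the filter, 0 with all 12 libraries in a single fit, 0 at an adjusted p under 0.01, and 0 to 5 with each replicate left out. With the block and without 1 pair, 2 to 13 were called in 769-P. The same fits called 0 to 4 in ACHN. In ACHN it was 0 in the main fit, 4 with the block and 11 in limma-voom with the block. Between the lines it was 19, and 9 at an adjusted p under 0.01. The interaction went from 0 to 2 in limma-voom with the block. Replicate numbers did not pair libraries across lines (correlations from -0.0564 to 0.042), and a block there left 16 members. The cause of these changes was not tested. Pseudocounts and scalings otherwise changed no direction of a named gene, except SQLE in ACHN, at -0.01 with no further scaling, -0.00 with all 12 libraries in a single fit and -0.00 in limma-voom with the block, where ACSS2 was at -0.01.

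Leaving out 1 replicate unpairs the rest, and signs then turned for small differences. The ranges on the log2 scale in 769-P were -0.17 to 0.06 (SQLE), -0.25 to 0.17 (SREBF1), -0.22 to 0.03 (SREBF2), -0.49 to 0.26 (INSIG1) and -0.79 to 0.07 (SCD). In ACHN they were -0.37 to 0.05 (HMGCS1), -0.09 to 0.10 (SQLE), -0.17 to 0.06 (NSDHL), -0.35 to 0.72 (INSIG1), -0.40 to 0.01 (ACLY), -0.26 to 0.35 (ACSS2), -0.25 to 0.30 (FASN), -0.42 to 0.01 (SCD), -0.26 to 0.07 (FADS2) and -0.01 to 0.43 (PLIN3). For SREBF1 between the lines the range was -0.11 to 0.22. For TM7SF2 and FADS2, at 106 and 213 reads in the lowest library, counting error adds to the spread between replicates. Intervals cover the spread between these libraries only.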
